A study of Mus musculus with 4 samples.

Results

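Genes of carbon dioxide and bicarbonate handling, 10 in all, were followed in mTFP-positive retinal cells of control and *Rax* iCKO mice. They were chosen by name: the 6 carbonic anhydrase genes *Car2*, *Car4*, *Car10*, *Car11*, *Car12* and *Car14*, and the 4 bicarbonate transporter genes *Slc4a2*, *Slc4a3*, *Slc4a4* and *Slc4a7*. All 10 are among the 24322 gene symbols of the files, and 8 of them had a mean FPKM (reads of a gene set to its length and to the mapped reads of its library) of at least 1, the level above which 12363 genes were tested. Each of the 4 libraries came from 1 mouse. All 4 mice carried *Rlbp1-CreERT2*, in which a promoter fragment of the Müller glial gene *Rlbp1* drives a tamoxifen-dependent Cre recombinase, and *R26-CAG-LoxP-mTFP1*, which makes the teal fluorescent protein mTFP1 after recombination. All 4 received tamoxifen at P4, and their cells were sorted by FACS at P14. The 2 control mice (numbers 7984 and 3911) were *Rax* flox/WT, so that 1 of their *Rax* alleles could also be deleted, and the 2 *Rax* iCKO mice (numbers 7983 and 3914) were *Rax* flox/flox. The strain is labelled 129S6. The study also describes recombination in the retinal pigment epithelium with this Cre line. The comparison asks how loss of the homeobox gene *Rax* in Müller glial cells is reflected in these RNAs.

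Carbonic anhydrases speed the conversion between carbon dioxide with water and bicarbonate with a proton, and the Slc4 proteins carry bicarbonate across membranes. Photoreceptors release much carbon dioxide and acid, and Müller glial cells, which span the retina from its outer border to the vitreous, are known to take up carbon dioxide, hydrate it and pass bicarbonate on towards the vitreous. Within the families the roles differ: some anhydrases work in the cytosol, some outside the cell, and a few have lost catalysis altogether.

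The files hold no read counts, but low FPKM values move in whole-read steps, which put the depth at an estimated 9.27e+06 to 1.27e+07 mapped reads a library. The Müller glial marker *Rlbp1* was at 1292 to 2616 FPKM in the 4 libraries. Bipolar cell markers were also abundant, with *Trpm1*, a channel of ON bipolar cells, at 178 to 327 FPKM, so the sorted cells did not carry Müller glial RNA alone. *Rax* itself was at 189.1 and 181.4 FPKM in the control mice, against 111 and 98.4 FPKM in the *Rax* iCKO mice. *Rax* RNA was thus lower but still present, with a ratio of the means of 0.566, against 0.597 for *Rlbp1*. In limma its p was 0.00859 before adjustment and 0.9999 after it. The sex of the mice is not labelled. The X-inactivation RNA *Xist* measured 24.5 and 21.2 FPKM in the control mice but 0.0119 and 0.00605 FPKM in the *Rax* iCKO mice, and Y-linked RNA (*Eif2s3y*, *Ddx3y*, *Uty*) was found in mouse 7983 alone. The level of *Xist* followed genotype in all 4 libraries, so what goes with it cannot be told apart from genotype here. The part of sex in the results was not tested. The libraries lay closest, across genes, to the library of the other genotype with a near mouse number (r = 0.970 for 7983 with 7984 and 0.970 for 3911 with 3914, against 0.955 within the *Rax* iCKO mice and 0.952 within control). Differences are therefore also given within each of these 2 runs of mouse numbers. In bulk RNA, fewer cells of a type and less RNA per cell cannot be told apart.

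The levels of the 9 genes with RNA spanned about 4 orders of magnitude. FPKM are set to gene length, which allows levels to be compared between genes. By the mean over the 4 libraries, *Car2* came first at 2293 FPKM, followed by *Car14* at 914, *Car10* at 98.8, *Car11* at 30.7, *Slc4a2* at 17.3, *Slc4a3* at 9.68, *Slc4a7* at 5.20, *Slc4a4* at 3.11 and *Car12* at 0.210 FPKM. *Car4* was listed at 0 in every library. The ranges of neighbours in this order did not overlap, except those of *Slc4a7* and *Slc4a4*. *Car2* ranked between 5 and 14 among all gene symbols of a library, and *Car14* between 34 and 63. Among all 16 carbonic anhydrase genes of the files, *Car2* held 63.9% to 70.5% and *Car14* 25.99% to 28.4% of the summed FPKM.

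**Figure D1:**
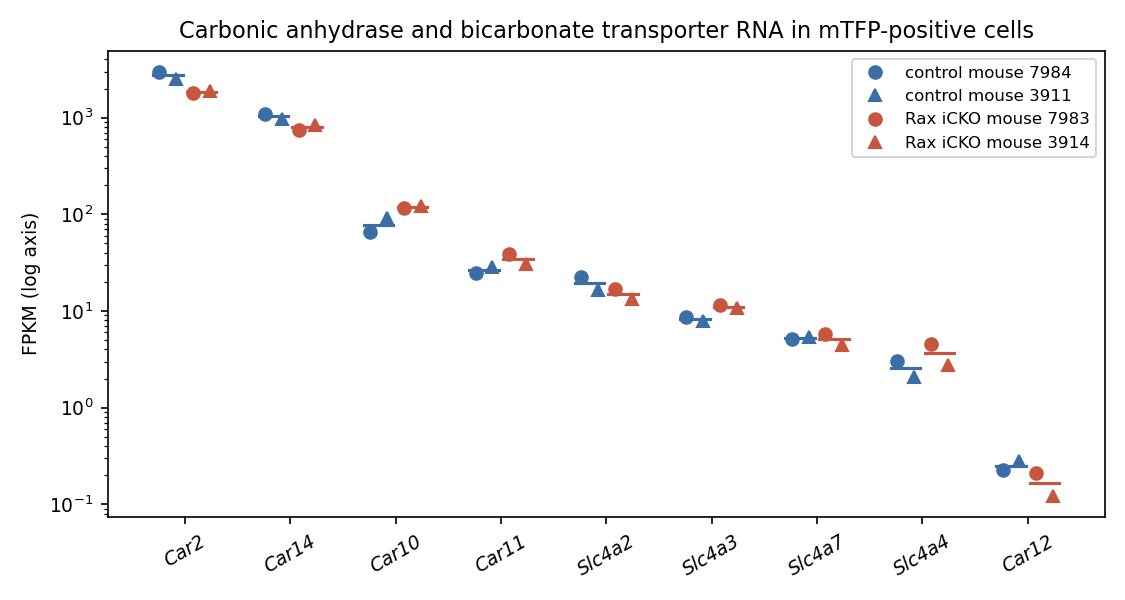
FPKM (log axis) of 9 genes in each library, with controls in blue and Rax iCKO in red, circles for mice 7984 and 7983, triangles for mice 3911 and 3914, and short lines for the mean of each group of 2. *Car2* and *Car14* stand far above the rest, and *Car4*, listed at 0 in all 4 libraries, cannot be drawn on this axis.

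*Car2* encodes the fast cytosolic carbonic anhydrase, long used as a marker of Müller glial cells. The gene spans 14886273 to 14900770 on the plus strand of chromosome 3 (GRCm38). Its level was 2969 and 2500 FPKM in control mice 7984 and 3911, and 1818 and 1883 FPKM in *Rax* iCKO mice 7983 and 3914. Neither *Rax* iCKO library reached the lower control. The mean was 2735 ± 332 (SD, n = 2) for the control mice against 1851 ± 46.1 (SD, n = 2) for the *Rax* iCKO mice, a ratio of 0.677. The log2 fold change, *Rax* iCKO over control on the log2(FPKM + 1) scale, was -0.56 with a standard error of 0.40 and a 95% interval from -1.53 to 0.41 in limma, and the adjusted p was 0.9999, as it was for each of the 8 tested genes. By run of mouse numbers the ratio was 0.612 for 7983 to 7984 and 0.753 for 3914 to 3911. Quantile normalization gave a log2 fold change of -0.36, scaling to equal Müller glial markers -0.25 and scaling to equal bipolar cell markers -0.94. Red blood cells and oligodendrocytes also make *Car2*, and the part of either in this result was not tested. The globin gene *Hba-a1* was at 3.79 and 6.54 FPKM in the control mice, against 8.52 and 0 FPKM in the *Rax* iCKO mice, while *Mbp*, a myelin gene, was at 9.64 and 11.5 FPKM, against 13.8 and 14.03 FPKM, higher in both *Rax* iCKO libraries. The summed level of the 7 red cell markers was 4.85 and 14.7 FPKM in the control mice, against 10.5 and 0.316 FPKM in the *Rax* iCKO mice. For the 5 oligodendrocyte markers the sum was 10.5 and 13.5 FPKM in the control mice, against 14.6 and 15.2 FPKM in the *Rax* iCKO mice.

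*Car14* encodes a membrane anhydrase whose catalytic domain faces the outside of the cell, and in the mouse retina it is known on Müller glial cells and pigment epithelium. It lies on the minus strand of chromosome 3 from 95897768 to 95904691, where it overlaps *Aph1a* on the opposite strand. Its level was 1095 and 974 FPKM in the control mice, against 750 and 836 FPKM in the *Rax* iCKO mice. The groups did not overlap, with means of 1035 ± 86.1 (SD, n = 2) and 793 ± 60.6 (SD, n = 2) and a ratio of 0.767. The log2 fold change was -0.38 (standard error 0.31, 95% interval from -1.14 to 0.37), and the ratio within the runs was 0.685 and 0.859. Its size depended on scaling, with -0.18 after quantile normalization, -0.07 with equal Müller glial markers and -0.76 with equal bipolar cell markers. Of the pigment epithelial markers, *Rpe65* was between 0 and 0.774 FPKM, and *Ttr* was the most abundant at 1.001 and 4.12 FPKM in the control mice, against 2.49 and 7.37 FPKM in the *Rax* iCKO mice. *Tyr* and *Tyrp1*, of pigment synthesis, did not pass 1.001 FPKM and were higher in both *Rax* iCKO libraries without overlap. *Best1* was lower without overlap, at 0.334 and 0.859 FPKM in the control mice, against 0.113 and 0.285 FPKM in the *Rax* iCKO mice. The other markers of this list overlapped. All 8 of these markers summed to 3.57 and 6.35 FPKM in the control mice, against 6.26 and 9.73 FPKM in the *Rax* iCKO mice, and their part in the result for *Car14* was not tested.

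The other 2 catalytic anhydrases of the group were scarce. *Car12*, a second membrane anhydrase with an extracellular catalytic domain, was at 0.225 and 0.278 FPKM in the control mice, against 0.213 and 0.123 FPKM in the *Rax* iCKO mice. Its 4 values fit 10 and 9 whole reads in the control mice, against 7 and 4 whole reads in the *Rax* iCKO mice, so the lower values of *Rax* iCKO rest on a few reads, and the gene was not among those tested. *Car4*, the lipid-anchored anhydrase known from choroidal and brain capillaries, was listed at 0 throughout. Of the 6 endothelial markers, *Cdh5* did not pass 0.104 FPKM and *Pecam1* did not pass 0.638 FPKM, whereas *Kdr* was at 228 to 464 FPKM, without separating the genotypes.

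*Car10* and *Car11* encode carbonic anhydrase-related proteins, which lack catalysis, are secreted by neurons and bind the synaptic proteins called neurexins. *Car10*, on the plus strand of chromosome 11 from 93098028 to 93601749, was at 65.7 and 91.1 FPKM in the control mice, against 115 and 123 FPKM in the *Rax* iCKO mice. Both *Rax* iCKO libraries were higher than both controls. The means were 78.4 ± 18.0 (SD, n = 2) and 119 ± 5.68 (SD, n = 2), a ratio of 1.52. The log2 fold change was 0.62 (standard error 0.24, 95% interval from 0.03 to 1.21), and its p in limma was 0.0429 before adjustment and 0.9999 after it. *Car10* was the only one of the 8 tested genes with an unadjusted p under 0.05, against 2.86% of all genes tested. Without control mouse 7984 its log2 fold change was 0.38, and scaled to equal bipolar cell markers it was 0.24. The count of such genes among the 8 was 0 with equal medians, without the variance trend, with Müller glial scaling and in 3 of the 4 fits that left out a mouse (where the lone mouse of a genotype is assumed to vary like the other genotype), 2 with bipolar cell scaling, where 1176 of all genes had such a p, and 4 with the runs of mouse numbers as a block, where 1938 of all genes did. The ratio was 1.75 within the first run of mouse numbers and 1.35 within the second.

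*Car11*, on the plus strand of chromosome 7 from 45699843 to 45704682, was also higher in both *Rax* iCKO libraries, though its log2 fold change turned to -0.0042 when the libraries were scaled to equal bipolar cell markers. Its level was 24.8 and 28.5 FPKM in the control mice, against 39.1 and 30.3 FPKM in the *Rax* iCKO mice, and the closest libraries of the genotypes, mice 3911 and 3914, differed by a ratio of only 1.06. Its one annotated coding transcript puts this at an estimated 436 and 366 reads in the control mice, against 510 and 391 reads in the *Rax* iCKO mice. The means were 26.6 ± 2.64 (SD, n = 2) and 34.7 ± 6.18 (SD, n = 2). In limma the difference came to a log2 fold change of 0.36 (standard error 0.23), or 0.18 without mouse 7983, the library in which *Car11* was highest.

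The study takes TAATT as the predicted binding sequence of Rax. RefSeq promoter windows (GRCm38.p6) were at hand for 9 of the 10 genes, all but *Car2*, with 13 windows in all, each covering the 250 bases before a transcript start. None of the 13 held TAATT on either strand, and 25.03% of the 32851 windows of all genes held it. The shorter homeodomain core ATTA, or TAAT on the other strand, which is part of TAATT, was in 3 of the 13 windows, those of *Car14*, *Slc4a4* and *Slc4a7*, and in 54.9% of all windows. Base composition, on which such matches depend, was not matched in these shares. The median GC content was 52.4% over all windows and ran from 43.6% to 82% in the 13. The windows with the core held 62% (*Car14*), 48.8% (*Slc4a4*) and 43.6% (*Slc4a7*) GC. The windows of *Car14*, an abundant anhydrase that was lower in both *Rax* iCKO libraries, and of *Car10*, which was higher in both, are shown (for *Car10* the second of its 2 windows, a choice that rests on no value) with the core in capitals. They are read in the direction of transcription from chr3:95904686-95904935 (minus strand) and chr11:93099040-93099289 (plus strand).
Car14: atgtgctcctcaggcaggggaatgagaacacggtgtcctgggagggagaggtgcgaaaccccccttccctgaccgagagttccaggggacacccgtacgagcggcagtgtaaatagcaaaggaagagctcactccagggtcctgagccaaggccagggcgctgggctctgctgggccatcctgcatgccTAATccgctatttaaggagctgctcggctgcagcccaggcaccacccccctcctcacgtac
Car10: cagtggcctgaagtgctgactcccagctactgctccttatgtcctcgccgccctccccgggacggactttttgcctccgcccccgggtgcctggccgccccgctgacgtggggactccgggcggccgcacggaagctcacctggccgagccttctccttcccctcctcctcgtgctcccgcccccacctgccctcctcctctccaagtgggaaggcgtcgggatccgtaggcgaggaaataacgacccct
The single core of *Car14* begins 61 bases before the start, and neither *Car10* window holds one. A match is a match of letters, and these short windows leave out distal sites.

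*Slc4a2* and *Slc4a3* encode the anion exchangers AE2 and AE3, which trade chloride for bicarbonate and need no sodium. *Slc4a2* (chromosome 5, 24423837 to 24440950, plus strand, overlapping *Fastk* on the opposite strand) was at 22.7 and 16.5 FPKM in the control mice, against 16.7 and 13.4 FPKM in the *Rax* iCKO mice. The groups overlapped, since mouse 7983 was just above control mouse 3911, and the log2 fold change was -0.35 (standard error 0.26). It was -0.13 without control mouse 7984, -0.05 with equal Müller glial markers and -0.71 with equal bipolar cell markers. Within the runs of mouse numbers *Slc4a2* was lower in the *Rax* iCKO mice both times, with ratios of 0.738 and 0.810. *Slc4a3* (chromosome 1, 75546266 to 75562172, plus strand), which retinal Müller glial cells and neurons are known to use, was at 8.66 and 7.87 FPKM in the control mice, against 11.6 and 10.6 FPKM in the *Rax* iCKO mice. Its groups did not overlap, and the ratio within the runs was nearly the same, 1.34 and 1.35. The means were 8.27 ± 0.560 (SD, n = 2) and 11.1 ± 0.678 (SD, n = 2), with a log2 fold change of 0.39 (standard error 0.23, 95% interval from -0.17 to 0.94). Scaled to equal bipolar cell markers, it came to 0.04. The ratio of *Slc4a3* to *Slc4a2* inside a library, which no single factor per library can move, was 0.382 and 0.477 in the control mice, against 0.692 and 0.795 in the *Rax* iCKO mice.

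*Slc4a4* and *Slc4a7* encode the sodium bicarbonate cotransporters NBCe1 and NBCn1. NBCe1 carries charge and is known from the endfeet of Müller glial cells, whereas NBCn1 is electroneutral and is known from photoreceptors, which degenerate in mice without it. *Slc4a4* (chromosome 5, 88886818 to 89239653, plus strand) was at 3.05 and 2.06 FPKM in the control mice, against 4.56 and 2.77 FPKM in the *Rax* iCKO mice. The groups overlapped, the ratio within the runs was 1.49 and 1.35, and the log2 fold change was 0.38 (standard error 0.33). It ran from 0.10 without *Rax* iCKO mouse 7983 to 0.66 without *Rax* iCKO mouse 3914, so that 1 library set much of its size, and it was 0.09 when scaled to equal bipolar cell markers. *Slc4a7* (chromosome 14, 14702279 to 14799940, plus strand) was at 5.17 and 5.36 FPKM in the control mice, against 5.82 and 4.43 FPKM in the *Rax* iCKO mice, an estimated 522, 394, 435 and 327 reads on its one annotated coding transcript. The controls lay between the *Rax* iCKO libraries, the ratio within the runs was 1.12 and 0.827, and the log2 fold change was -0.04 with a 95% interval from -0.68 to 0.59. It turned to 0.12 without *Rax* iCKO mouse 3914 and to 0.21 with libraries scaled to equal Müller glial markers.

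None of the 8 tested genes had an adjusted p under 0.05 in limma (1 of them had an unadjusted p under 0.05). Of the 12363 genes tested 3 had one, a share of 0.0243%, with 0.00809% higher and 0.0162% lower. *Xist*, lower in *Rax* iCKO, was among them (adjusted p 0.0167 in limma). The groups did not overlap for 5 of the 8, *Car10*, *Car11* and *Slc4a3* higher and *Car2* and *Car14* lower, where 29.5% of all genes tested did not overlap (15.4% higher and 14.1% lower). In both runs of mouse numbers 7 of the 8 had the same direction, which 62.3% of all genes tested had, and *Slc4a7* was the exception. The 8 genes had a median log2 fold change of 0.16, with 4 higher and 4 lower, against -0.0044 over all genes tested. For a single gene, 2 mice against 2 cannot go below p = 0.333 in a two-sided exact permutation test, and that was the value for *Car2*, *Car10*, *Car11*, *Car12*, *Car14* and *Slc4a3*. The labels do not say that the mice of a genotype were of separate litters. The limma p-values set the difference between genotypes against the spread within genotypes of these 4 mice, shared over genes.

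**Figure D2:**
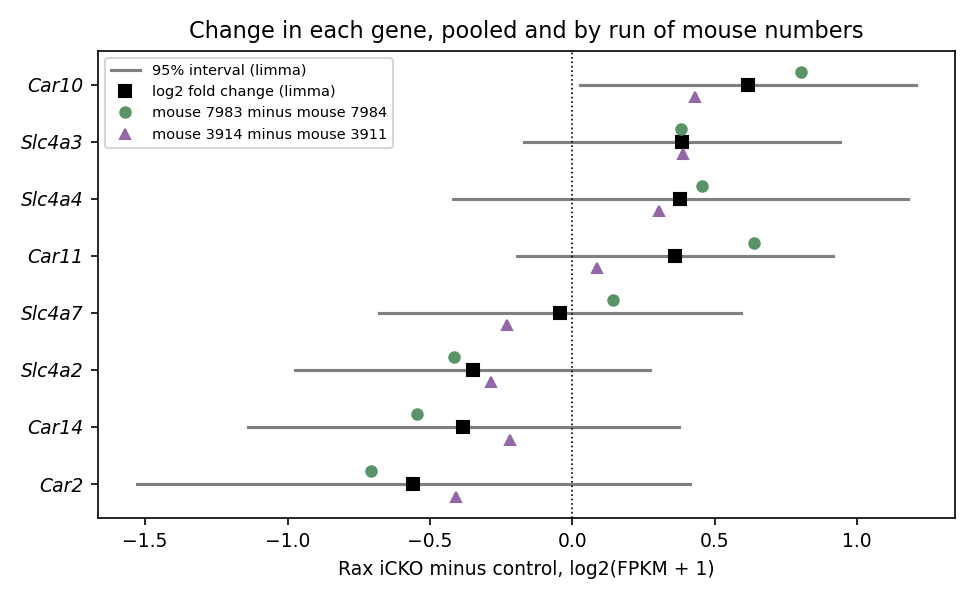
Difference in log2(FPKM + 1) between Rax iCKO and control for the 8 tested genes, with black squares for the log2 fold change of limma, grey lines for its 95% interval, green circles for mouse 7983 minus mouse 7984 and purple triangles for mouse 3914 minus mouse 3911. *Car10* has the one interval that leaves out 0 (0.03 to 1.21, before adjustment), and *Slc4a7* is the one gene whose runs lie on either side of 0.

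Markers of cell types were read beside these genes. In limma 0 of the Müller glial, rod and bipolar cell markers had an adjusted p under 0.05. Of the 11 Müller glial markers, 10 had a negative log2 fold change (median -0.30) and 3, *Rlbp1*, *Vim* and *Apoe*, did not overlap between genotypes. The other 8 overlapped. The summed level of the list, of which *Apoe* is the largest term, was 14884 and 11214 FPKM in the control mice, against 10145 and 10206 FPKM in the *Rax* iCKO mice. The geometric mean of the list, in which each marker has the same weight, overlapped between genotypes, at 550 and 374 FPKM against 394 and 338 FPKM. All 7 bipolar cell markers had a positive log2 fold change (median 0.36), 4 of them did not overlap, and their sum was 1678 and 2390 FPKM in the control mice, against 2353 and 2589 FPKM in the *Rax* iCKO mice. The 8 rod markers were lower (median log2 fold change -0.70, 7 of 8 lower without overlap), with sums of 1367 and 1345 FPKM in the control mice, against 913 and 791 FPKM in the *Rax* iCKO mice. These counts stand against 14.1% of all genes tested that were lower and 15.4% that were higher without overlap. By group direction *Car2* and *Car14* went with the Müller glial and rod markers, and *Car10* and *Car11* with the bipolar cell markers. Library by library this did not hold for *Car2* and *Car14*: the Müller glial geometric mean was lower in control mouse 3911 than in *Rax* iCKO mouse 7983, and both genes were higher in mouse 3911. The bipolar cell geometric mean was 137, 199, 204 and 228 FPKM in mice 7984, 3911, 7983 and 3914. *Car10* had the same order, whereas *Car11* was highest in mouse 7983. Control mouse 7984 was the highest library for Müller glial markers, *Car2* and *Car14*, and the lowest for bipolar cell markers, *Car10* and *Car11*. Of the other cell types, the summed markers overlapped between genotypes for cones (141 to 198 FPKM over the 4 libraries), amacrine cells (50.7 to 78.8), horizontal cells (0.767 to 1.08), endothelium (232 to 468), pericytes (11.03 to 26.7) and microglia (11.8 to 54.3). Ganglion cell markers summed to 9.02 FPKM in each control mouse against 7.57 and 4.11 FPKM in the *Rax* iCKO mice, and the astrocyte list, whose defining gene *Pax2* did not pass 0.0381 FPKM, to 51.5 and 43.4 against 28.7 and 31.3 FPKM. The part of the marker levels in the results for the 10 genes was not tested.

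**Figure D3:**
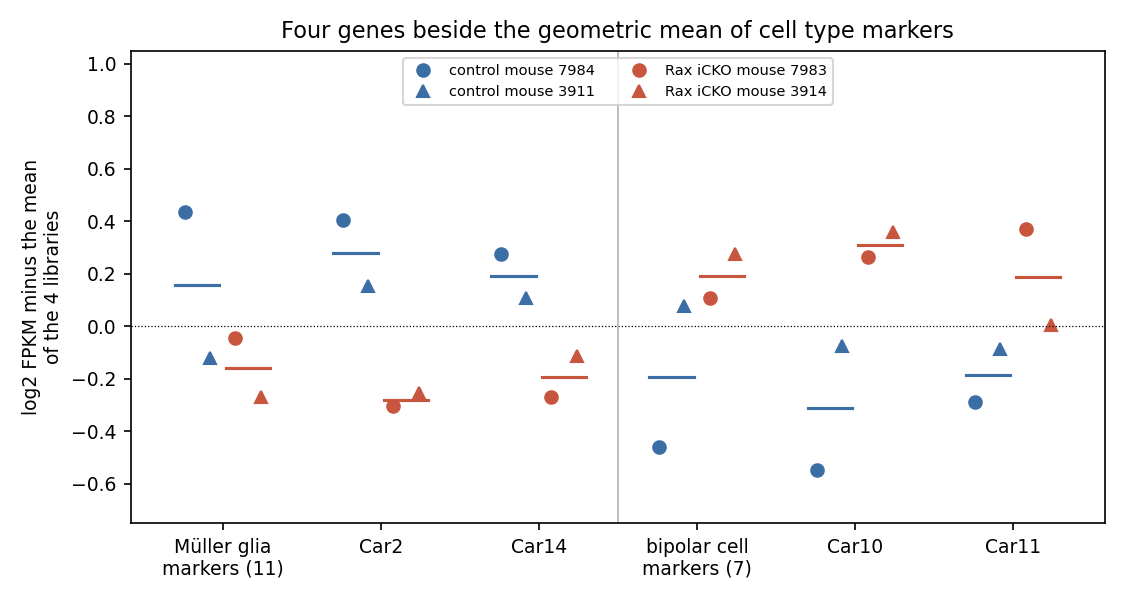
Deviation of log2 FPKM from the mean of the 4 libraries for the geometric mean of 11 Müller glial markers, *Car2* and *Car14* (left) and for the geometric mean of 7 bipolar cell markers, *Car10* and *Car11* (right), with controls in blue, Rax iCKO in red and short lines for group means. Control mouse 7984 is the highest point of each column on the left and the lowest point of each column on the right.

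Set against the markers of the same library, the picture was less even. The ratio of *Car2* to the geometric mean of the Müller glial markers was 5.40 and 6.69 in the control mice, against 4.61 and 5.58 in the *Rax* iCKO mice, and that of *Car14* was 1.99 and 2.60 in the control mice, against 1.90 and 2.48 in the *Rax* iCKO mice. Both sets overlapped. The ratio of *Car2* to *Rlbp1* alone, picked after its values were seen, was 1.14 and 1.16 in the control mice, against 1.41 and 1.21 in the *Rax* iCKO mice. *Rlbp1* itself was at 2616 and 2159 FPKM in the control mice and at 1292 and 1560 FPKM in mice 7983 and 3914. *Car2* in the *Rax* iCKO mice was lower per mapped read and higher per *Rlbp1*. Per Müller glial marker set it was not separated from control, though lower within each run. The ratio of *Car10* to the geometric mean of the bipolar cell markers was 0.478 and 0.457 in the control mice, against 0.565 and 0.539 in the *Rax* iCKO mice, without overlap, and that of *Car11* was 0.180 and 0.143 in the control mice, against 0.192 and 0.133 in the *Rax* iCKO mice, with overlap. *Slc4a2* kept within 0.0396 to 0.0441 of the Müller glial markers in all 4 libraries. *Slc4a4* was at 0.00555 and 0.00551 of those markers in the control mice, and at 0.0116 and 0.00821 in the *Rax* iCKO mice. Against the bipolar cell markers *Slc4a4* overlapped, at 0.0222 and 0.0103 in the control mice and 0.0224 and 0.0121 in the *Rax* iCKO mice, and so did *Slc4a3*, at 0.0631 and 0.0395 in the control mice and 0.0569 and 0.0465 in the *Rax* iCKO mice.

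Shares of the summed anhydrase FPKM were read without a test. They are coupled, so that a lower *Car2* raises the share of *Car10*. The FPKM of all 16 anhydrase genes summed to 4214 and 3684 in the control mice, against 2797 and 2946 in the *Rax* iCKO mice. *Car10* supplied 1.56% and 2.47% of this sum in the control mice, against 4.12% and 4.18% in the *Rax* iCKO mice. *Car2* held 2.71 and 2.57 times the level of *Car14* in the control mice, against 2.42 and 2.25 times in the *Rax* iCKO mice, so that the ratio of the 2 abundant anhydrases was also without overlap. The ratio of *Car2* to *Car10* was 45.2 and 27.4 in the control mice, against 15.8 and 15.3 in the *Rax* iCKO mice.

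The other genes of pH and bicarbonate handling were read from 9 lists that hold 68 genes, of which 45 were tested. Of the 45, 0 passed an adjusted p of 0.05 in limma, in either direction (0.0243% of all genes tested did), and 2 had an unadjusted p under 0.05, *Oxsr1* and *Atp6v0e* (2.86% of all genes tested did). Counts without overlap in these lists are to be read against 29.5% of all genes tested. Of the 10 other carbonic anhydrases, 3 were tested and all 3 overlapped. *Car8*, whose protein also lacks catalysis and binds the inositol trisphosphate receptor, was the most abundant at 41.9 and 81.1 FPKM in the control mice, against 61.6 and 64.3 FPKM in the *Rax* iCKO mice. Of the 6 other *Slc4* genes, 2 were tested and both overlapped, with a median log2 fold change of 0.39. The sodium-driven bicarbonate transporter gene *Slc4a10*, known from neurons, was at 28.5 and 48.4 FPKM in the control mice, against 45.9 and 52.3 FPKM in the *Rax* iCKO mice. It alone held 38.2% to 58.1% of the FPKM of all 10 *Slc4* genes, more than any of the 4 transporters described above.

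The Slc26 anion exchangers, a second family that moves chloride and bicarbonate, had 5 of 11 genes tested, and all 5 had a negative log2 fold change (median -0.26). *Slc26a7* was at 6.44 and 7.44 FPKM in the control mice, against 3.71 and 4.84 FPKM in the *Rax* iCKO mice, *Slc26a1* and *Slc26a6* were also without overlap, and none of the 5 had an unadjusted p under 0.05. The sodium-proton exchangers, which remove acid, had 5 of 9 genes tested, all with a positive log2 fold change (median 0.18). The groups did not overlap for 2 of the 5, where 29.5% of all genes tested did not overlap.

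The monocarboxylate transporters, which export lactate together with protons, overlapped for 4 of 6 genes. *Bsg*, the chaperone subunit of these transporters and the most abundant gene of that list, was at 1781 and 1709 FPKM in the control mice, against 1330 and 1376 FPKM in the *Rax* iCKO mice, without overlap. The 13 vacuolar proton pump subunits had a median log2 fold change of 0.01, with 3 higher and 2 lower without overlap (15.4% and 14.1% of all genes tested). Among them *Atp6v0e* was at 161 and 176 FPKM in the control mice, against 98.7 and 117 FPKM in the *Rax* iCKO mice (log2 fold change -0.64, standard error 0.22). Of the 8 regulators of bicarbonate transport 7 were tested, and *Oxsr1*, a kinase downstream of WNK kinases, was at 4.25 and 3.58 FPKM in the control mice, against 6.47 and 6.88 FPKM in the *Rax* iCKO mice (log2 fold change 0.65, standard error 0.25). *Slc9a3r1*, a scaffold protein gene of apical membranes, was at 57.6 and 43.2 FPKM in the control mice, against 38.0 and 30.5 FPKM in the *Rax* iCKO mice. *Nrxn3*, the most abundant of the neurexins that *Car10* and *Car11* proteins bind, was at 35.9 and 39.1 FPKM in the control mice, against 45.8 and 66.5 FPKM in the *Rax* iCKO mice, without overlap. The other neurexin that was tested overlapped. The receptor phosphatases with an anhydrase-like outer domain were split, *Ptprg* lower (13.4 and 12.4 against 10.1 and 11.4 FPKM) and *Ptprz1* higher (28.0 and 32.6 against 34.2 and 40.5 FPKM), both without overlap.

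**Figure D4:**
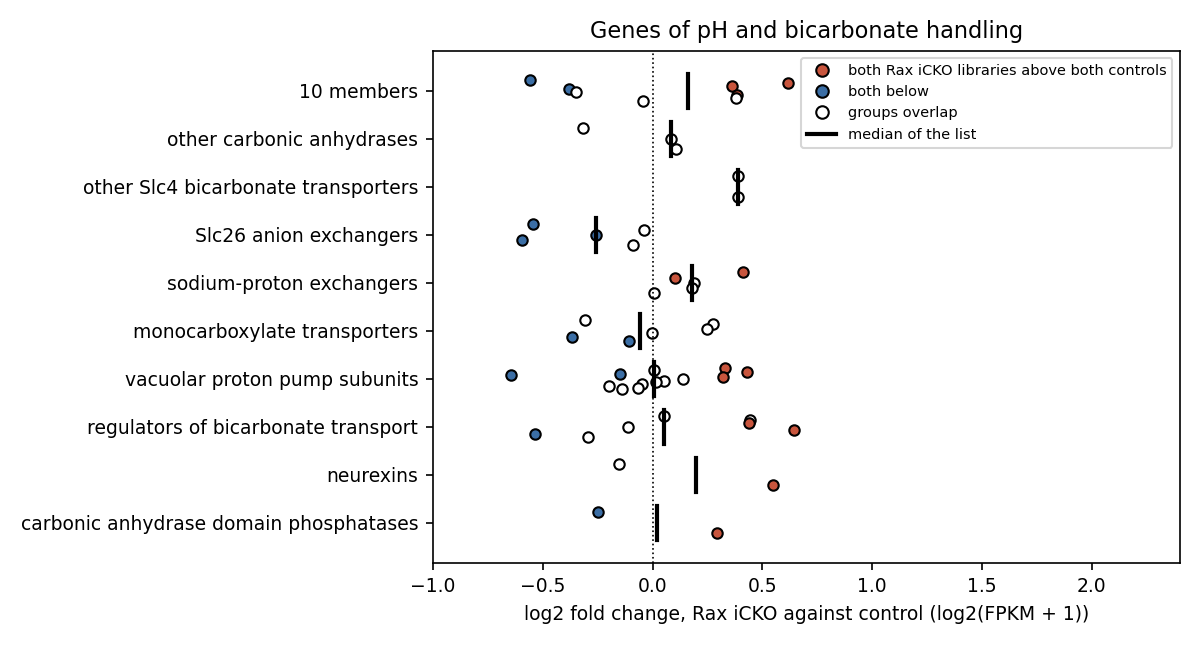
Log2 fold change of each tested gene (Rax iCKO against control, log2(FPKM + 1)) in the 10 members and in 9 lists of pH and bicarbonate handling, with red for genes whose Rax iCKO libraries both lie above the controls, blue for both below, white for overlap and a black bar for the median of each list. The medians run from -0.26 for the Slc26 exchangers to 0.39 for the other Slc4 genes, and no gene passed an adjusted p of 0.05.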

How the data were processed

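The authors sorted mTFP-positive cells, sequenced them single-end and used TopHat, Bowtie2 and SAMtools to map the reads (mouse build mm10). They deposited 1 FPKM value per gene symbol and library, from Cufflinks in the paper's methods, while the submitters' processing notes name Cuffdiff 2.2.1. The versions of the mapping tools also differ between these sources, as does the RNA isolation reagent. Use of strand is not given in the sources used here, so genes that overlap on opposite strands share an uncertain split of reads. Each FPKM is relative to the mapped reads of its own library, so more of an abundant RNA lowers the values of others.

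FPKM were used as deposited. Genotypes came from the labels. The genotypes entered limma 3.58.1 (R 4.3.3, eBayes with a trend) as log2(FPKM + 1), a scale that understates changes of low genes. Only the 12363 genes whose FPKM averaged 1 or more were fitted, and p-values were adjusted over all of them by Benjamini-Hochberg. Single genes were compared by exact permutation in scipy 1.17.1. Depth was estimated from low values: 91.5% of 2310 genes under 0.5 FPKM fitted at most 20 whole reads (tolerance 0.04), against 36.4% after added noise. Mapped reads used GENCODE M21 transcript lengths less 200 bases. Gene spans are from GENCODE M21.

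The members, the 9 pathway lists and the 14 marker lists were chosen with earlier results of these data known. Named were all 10 members, and from the lists the most abundant genes and those without overlap between genotypes, plus defining markers. Marker genes named beside this rule (*Trpm1*, *Vim*, *Apoe*, *Cdh5*, *Tyr*, *Tyrp1*, *Best1*) were picked with their values in view. The settings tried in turn were a smaller pseudocount (0.1), dropping the filter, raising it to 5, quantile normalization, median scaling, eBayes without the trend, a block for the runs of mouse numbers, leaving out each mouse (the spread then rests on the genotype that still has 2), and the study's rule of a 2-fold change with an equal-variance p. Scaling to the Müller glial or bipolar cell markers was added after the data were seen.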

Additional observations from a re-analysis of the deposited data

How the results depend on the processing

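None of the 8 tested genes passed an adjusted p of 0.05 in limma under any alternative, and none met the study's rule of a 2-fold change with p under 0.05. Their log2 fold changes kept direction in all alternatives for *Car2*, *Car10*, *Car14*, *Slc4a2*, *Slc4a3* and *Slc4a4*. Dropping or raising the filter, leaving out the trend and adding the block cannot change a log2 fold change, so only the other settings bear on direction. *Car11* turned to -0.0042 when libraries were scaled to equal bipolar cell markers, and *Slc4a7* turned to 0.21 with Müller glial markers and took values from -0.21 to 0.12 (the latter without *Rax* iCKO mouse 3914) when single mice were left out. These scalings moved the median of all genes to 0.27 (Müller glial markers) and -0.34 (bipolar cell markers). Scaled to Müller glial markers, the log2 fold change was -0.25 for *Car2*, -0.07 for *Car14* and 0.92 for *Car10*. Scaled to bipolar cell markers, it was -0.94, -0.76 and 0.24, and 0.04 for *Slc4a3* and 0.09 for *Slc4a4*. With each mouse left out in turn, values ran from -0.68 to -0.43 for *Car2*, from -0.47 to -0.30 for *Car14*, from 0.38 to 0.85 for *Car10*, from 0.18 to 0.54 for *Car11*, from -0.57 to -0.13 for *Slc4a2*, from 0.32 to 0.45 for *Slc4a3* and from 0.10 to 0.66 for *Slc4a4*. The smallest for *Car10* and *Slc4a2* came without control mouse 7984, and the smallest for *Car11* and *Slc4a4* without *Rax* iCKO mouse 7983. *Slc4a4* has no value with the filter raised to 5 FPKM.

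Over all genes, limma called 3, among them *Xist*. The count was 0 without the filter (624 at an unadjusted p under 0.05) and 0 with the filter raised to 5 FPKM (279 unadjusted), 6 with equal medians, 6 scaled to Müller glial markers, 71 with the replicate block by run of mouse numbers and between 15 and 20 with each mouse left out in turn, and the study's rule picked 278. The cause was not tested. Libraries of a run deviated together from their group means (r = 0.503 across genes), but the labels do not pair them and 2 pairs are too few to settle it. With the replicate block the lowest adjusted p among the 8 genes was 0.0735, for *Car10*. Of the pathway lists, 0 genes were called in limma under any alternative (2 had an unadjusted p under 0.05 without any change of setting). Depth limits *Car12*, at 4 to 10 reads, and *Car4*, listed at 0.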
